A study of Rattus norvegicus with 3 samples.

Results

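Outer radial glia genes are genes that mark, in the developing human cortex, the radial glia that have left the ventricular surface. The 7 taken here were Hopx, Tnc, Ptprz1, Fam107a, Lifr, Il6st and Itgb5. They were found by symbol, each in 1 row of the 29772 genes measured. They were followed by droplet single-cell RNA sequencing in freshly dissociated cortical cells of rat (Rattus norvegicus) embryos with the wild-type genotype, in 3 libraries that the submitters labelled E14, E16 and E18, for embryonic days 14, 16 and 18. All 3 share tissue, genotype and papain dissociation, and none carries a treatment. Strain, litter and the number of embryos per library are not given in the sources used here. Each label has 1 library, so no difference between labels has a replicate check and no p-value is given. Intervals are 95% intervals for counting error alone. Unique molecular identifiers (UMIs) stand for captured RNA molecules, and neither embryo-to-embryo nor preparation error enters an interval.

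Radial glia are the stem cells of the embryonic cortex. They divide at the ventricle and give rise to intermediate progenitors, which express Eomes, and through them to excitatory neurons. Outer radial glia keep the long basal process but lose the apical contact. They are plentiful in primates and ferrets and scarce in rats and mice. In human tissue they are known for an extracellular matrix and growth factor programme that includes tenascin C (Tnc), its phosphatase receptor Ptprz1, the LIF receptor pair Lifr and Il6st, which signals through STAT3, and the integrin chain Itgb5. Most of these genes are also used by ventricular radial glia, astrocyte precursors, vessels or meninges, so a rat cell that contains them is not thereby an outer radial glial cell.

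Between 4286 and 5431 cells per library passed the filters (at least 1000 genes, at most 10% of UMIs from mitochondrial genes, doublets removed), with medians of 10477 to 12264 UMIs. Clustering without the 7 genes gave 409, 2185 and 1759 radial glia in the libraries labelled E14, E16 and E18. All 10 radial glia markers were present in each, summing to 5601 to 11363 UMIs per 1000000 UMIs of the class (CPM). Intermediate progenitors numbered 456, 401 and 1177. Excitatory neurons numbered 3315, 1 and 2159, so no neuron level or ratio is given for the library labelled E16. No cluster carried the markers of oligodendrocyte precursors or astrocytes. The radial glia labelled E16 came mainly from clusters 1, 8 and 12, and those of the other labels mainly from clusters 0, 13 and 18. Between 14 and 15 kept barcodes per library occur in another library too.

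The libraries do not run in the order of their labels. Embryonic globins made up 2.57% of globin UMIs in the library labelled E14, 67.4% in that labelled E16 and 22.0% in that labelled E18. Hmga2, a gene of young neural progenitors, stood at 11.6, 235 and 21.9 CPM in radial glia. Lin28b, another gene of early progenitors, had 0, 229 and 25 UMIs there. By these genes the library labelled E16 looks youngest and that labelled E14 oldest. Every direction below is therefore between libraries as labelled and not between known ages.

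Hopx, Tnc and Ptprz1 were highest in radial glia labelled E14, lowest in those labelled E16 and intermediate in those labelled E18, with intervals apart at each step. Il6st ran in the same order by smaller amounts, and Lifr was nearly level. Fam107a and Itgb5 were close to the detection limit in radial glia of all 3 libraries. Radial glia markers and markers of other classes moved with this order. The radial glia markers summed to 11363, 5601 and 7414 CPM, and the astrocyte markers to 25.0, 1.10 and 6.04 CPM, with Gjb6 at 0 UMIs in the library labelled E14 and Aldh1l1 in that labelled E18. The 8 intermediate progenitor markers summed to 1506, 508 and 792 CPM, all of them detected in each library. Eomes alone stood at 177, 17.4 and 58.2 CPM. The part of these in the results was not tested.

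**Figure D1:**
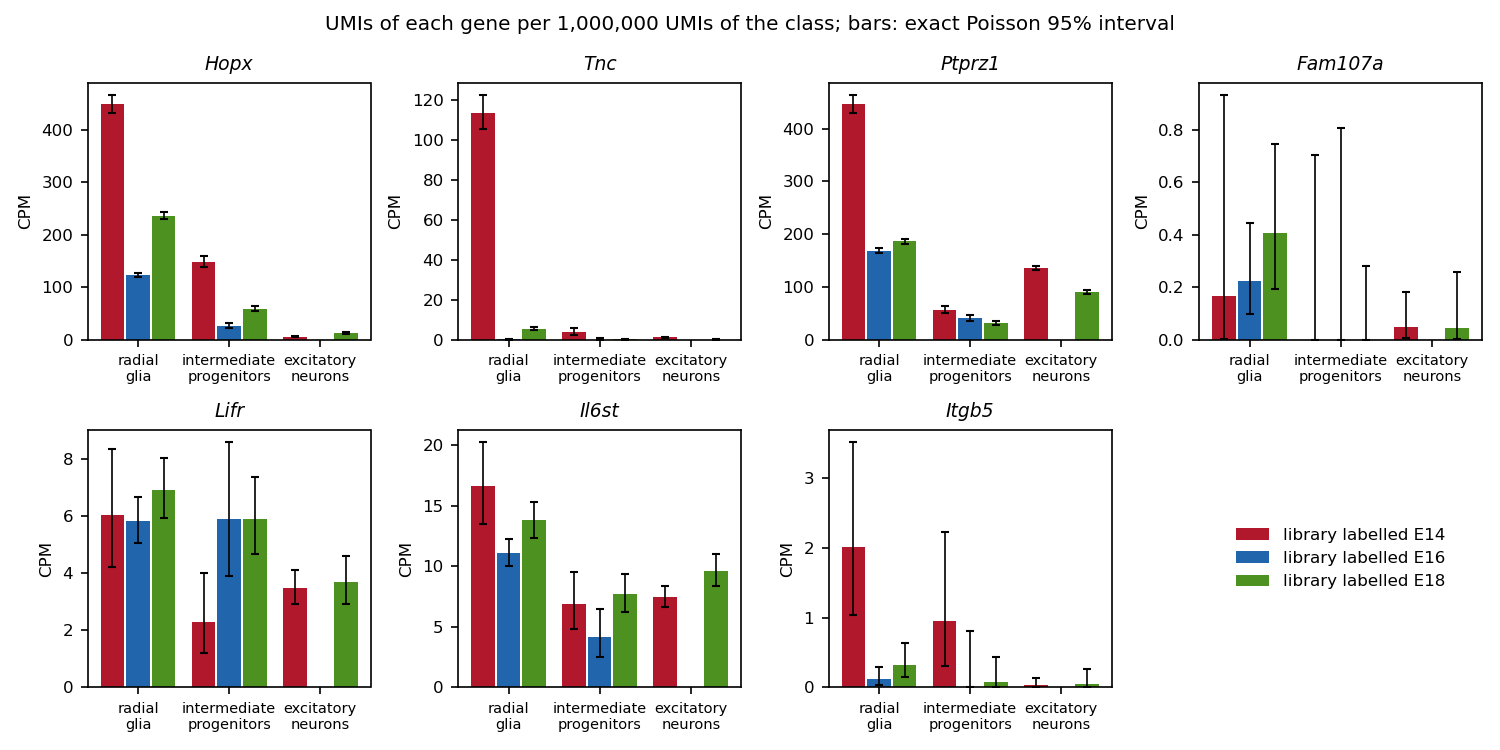
UMIs per 1000000 UMIs (CPM, vertical axis, a separate linear scale in each panel) of the 7 genes in radial glia, intermediate progenitors and excitatory neurons, with bars coloured by library label and whiskers giving exact Poisson 95% intervals. Neurons labelled E16 are left out because the library held 1. Hopx fell from 449 to 148 CPM between radial glia and intermediate progenitors labelled E14, and Tnc from 114 to 3.82 CPM.

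Hopx encodes a small homeodomain protein that does not bind DNA itself and acts as a cofactor. It is the gene most used to mark outer radial glia in human tissue. In radial glia it reached 449 CPM (432 to 466, from 2676 UMIs) in the library labelled E14. It was at 124 CPM (120.3 to 128) for the label E16 and 236 CPM (230.1 to 242) for the label E18. The intervals of the libraries do not overlap, and the level labelled E16 is 3.62 times lower than that labelled E14. The same order held across the clusters that make up the class. Clusters 0, 13 and 18 had 428, 468 and 476 CPM in cells labelled E14 and 241, 230.1 and 237 CPM in cells labelled E18. Clusters 1, 8 and 12 had 131, 104 and 127 CPM in cells labelled E16. In cluster 8, which held cells of both labels, Hopx was at 104 CPM (96.6 to 112) for the label E16 and 232 CPM (210.3 to 255) for the label E18. Between labels E16 and E18 the difference was therefore at least as large inside a shared cluster as over the class.

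The promoters of Hopx and Tnc are shown because these genes had the widest differences between libraries in radial glia, Hopx in CPM and Tnc in fold. Both run from 250 bases before the start of transcription to 50 bases after it, 5′ to 3′ on the strand of the gene, and come from RefSeq on assembly GRCr8. The first transcribed base is in capitals, as is any match to the motifs searched. Hopx lies at chr14:31429163-31429462 on the plus strand and Tnc at chr5:82476082-82476381 on the minus strand.
Hopx: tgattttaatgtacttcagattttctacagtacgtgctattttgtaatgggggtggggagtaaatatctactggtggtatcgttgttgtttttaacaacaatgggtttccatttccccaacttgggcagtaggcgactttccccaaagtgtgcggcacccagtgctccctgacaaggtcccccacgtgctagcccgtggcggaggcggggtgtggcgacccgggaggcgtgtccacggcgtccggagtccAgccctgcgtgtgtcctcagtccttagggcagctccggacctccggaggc
Tnc: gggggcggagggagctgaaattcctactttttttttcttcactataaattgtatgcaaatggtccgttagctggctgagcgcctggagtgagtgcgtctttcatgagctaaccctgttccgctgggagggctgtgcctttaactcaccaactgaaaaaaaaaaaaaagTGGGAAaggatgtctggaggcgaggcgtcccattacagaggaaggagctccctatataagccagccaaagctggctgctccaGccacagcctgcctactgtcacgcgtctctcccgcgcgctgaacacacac
RefSeq entries were found for 6 of the 7 genes, all but Ptprz1. Matches were looked for on both strands to the motifs of STAT (TTCNNNGAA), AP-1 (TGANTCA) and RBPJ (TGGGAA) and to the palindromic NFI motif. The share of all 33469 promoters of this length with a match was 8.87%, 7.33%, 25.7% and 0.0418%. The RBPJ letters, the site read by the Notch pathway's DNA-binding protein, occurred in Tnc, 82 bases before its start, and in Fam107a, 117 bases before its start. None of the 4 motifs occurred in the windows of Hopx, Lifr, Il6st or Itgb5. A match describes the letters and is not evidence of binding.

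Tnc encodes tenascin C, a matrix glycoprotein of stem cell niches. Radial glia labelled E14 held 678 Tnc UMIs, or 114 CPM (105 to 123). Those labelled E16 held 7 UMIs, or 0.197 CPM (0.0793 to 0.406), and those labelled E18 138 UMIs, or 5.60 CPM (4.70 to 6.61). The level labelled E14 was 20.3 times that labelled E18 and 577 times that labelled E16, the latter resting on 7 UMIs. In the library labelled E14, radial glia carried 90.3% of all Tnc UMIs with 11.3% of all UMIs. Tnc also differed among the clusters of that library, from 76.3 CPM (61.5 to 93.7) in cluster 18, led by genes of mitosis such as Cdc20 and Ccnb1, to 127 CPM (114 to 140.5) in cluster 0, led by Aldoc, Mfge8 and Slc1a3. Within radial glia, Tnc was thus high in 1 library. Its sources in the libraries labelled E16 and E18, meningeal cells among them, are described further on.

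Ptprz1 encodes a receptor-type phosphatase that binds tenascins, pleiotrophin and contactins. Radial glia labelled E14 had 447 CPM of it (429.9 to 464). The level was 169 CPM (165 to 173) for the label E16 and 186 CPM (181 to 192) for the label E18. Only the library labelled E14 stood well above the others, since the level labelled E18 was 1.10 times that labelled E16. Its log2 ratio between those labels, 0.13 as described below, turned to -0.46 with the stricter cell filter, while those of Hopx and Tnc kept their sign in all 12 alternatives.

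Lifr and Il6st form the receptor for leukaemia inhibitory factor, with Il6st (gp130) shared by the whole interleukin 6 family. In radial glia of the 3 labels Lifr had 6.04 CPM (4.23 to 8.36) for E14, 5.83 CPM (5.06 to 6.68) for E16 and 6.93 CPM (5.93 to 8.05) for E18. These intervals overlap throughout. Il6st had 16.6 CPM (13.5 to 20.2) for E14, 11.1 CPM (10.03 to 12.3) for E16 and 13.8 CPM (12.4 to 15.3) for E18. Only the levels labelled E14 and E16 and those labelled E16 and E18 have separate intervals, and the larger of these differences is 1.5-fold. The receptor pair therefore did not follow the several-fold differences of Hopx, Tnc and Ptprz1.

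Itgb5, the beta chain that pairs with the alpha v integrin to bind vitronectin, had 12, 4 and 8 UMIs in radial glia labelled E14, E16 and E18. Fam107a, which encodes an actin-associated protein, had 1, 8 and 10 UMIs. Each is under 2.1 CPM in every library. The Itgb5 level for the label E14, 2.01 CPM (1.04 to 3.52), was above its 0.113 CPM (0.0307 to 0.289) labelled E16. The intervals of Fam107a overlap, from 0.168 CPM (0.00425 to 0.935) labelled E14 to 0.405 CPM (0.194 to 0.746) labelled E18.

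Ratios between labels were taken as log2 with 10 CPM added to each level, over genes with a mean of at least 5 CPM in radial glia. Hopx, Tnc, Ptprz1, Lifr and Il6st pass that minimum. Tnc passes it through the library labelled E14 alone, so it had to differ there. With label E16 over E14 the ratios were -1.78 for Hopx, -3.60 for Tnc, -1.35 for Ptprz1, -0.33 for Il6st and -0.02 for Lifr. All 5 were lower and 3 of them at least 2-fold lower, where 3.77% of 9837 genes were at least 2-fold lower and 59% lower by any amount. The median of the 5 was -1.35, and of all genes -0.07. It came to -0.89 when only cells with at least 2000 genes and at most 5% mitochondrial UMIs were kept, and to -0.33 with Fam107a and Itgb5 included.

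With label E18 over E14 the ratios were -0.90 for Hopx, -2.99 for Tnc, -1.22 for Ptprz1, -0.16 for Il6st and 0.08 for Lifr. Of the 5, 4 were lower, where 56.2% of genes were. Tnc and Ptprz1 were at least 2-fold lower, where 1.35% of genes were, and the median was -0.90 against -0.04 over all genes. With all 7 genes it was -0.22. With label E18 over E16 the ratios were 0.88 for Hopx, 0.61 for Tnc, 0.17 for Il6st, 0.13 for Ptprz1 and 0.10 for Lifr. All 5 were higher, where 60.9% of genes were, and none by 2-fold on this scale, where 0.752% were. The Lifr intervals overlap, and its ratio went down to -0.11 among the alternatives. The added 10 CPM hold Tnc under that fold, since its plain levels differ 28.4-fold, from 138 and 7 UMIs, and its log2 ratio reached 2.46 among the alternatives. The median was 0.17 against 0.05 over all genes. These comparisons share libraries, so they are not independent of each other. Of all genes, 36.7% were lowest labelled E16 and highest labelled E14, and 11.1% were so with intervals apart. Of the 5, Hopx, Tnc, Ptprz1 and Il6st had that order, the first 3 of them with intervals apart.

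Along the lineage from radial glia to neurons, Hopx and Tnc dropped at the first step and Ptprz1 did not follow a single direction. Hopx in intermediate progenitors had 148 CPM (138 to 159) for the label E14, 26.5 CPM (22.0 to 31.7) for E16 and 59.3 CPM (55.2 to 63.6) for E18. That is 3.03, 4.68 and 3.98 times lower than in the radial glia of the same library. Neurons had 5.74 CPM in the library labelled E14 and 12.2 CPM in that labelled E18. Tnc had 20, 0 and 2 UMIs in intermediate progenitors, which is 3.82 CPM (2.33 to 5.90) labelled E14 and under the detection limit of 0.657 CPM labelled E16. In neurons labelled E14 it was at 1.12 CPM. Of the 4 genes at the minimum in radial glia and neurons together, Hopx, Tnc and Ptprz1 were at least 2-fold higher in radial glia labelled E14, where 12.4% of 10130 genes were. Tnc is at that minimum only through those radial glia, so its call was fixed by the filter. On this scale Hopx alone was 2-fold higher labelled E18, where 10.9% of genes were. Without the added 10 CPM, Ptprz1 was 2.07 times and Tnc 60.6 times higher there. Lifr was not counted at the minimum for radial glia and neurons. It was at 6.04 and 6.93 CPM in radial glia and 3.49 and 3.69 CPM in neurons labelled E14 and E18.

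Ptprz1 was lowest in the intermediate progenitors. It was at 56.3 CPM (50.1 to 63.2) there in the library labelled E14 and at 135 CPM (132 to 139) in the neurons. In the library labelled E18 the levels were 31.5 CPM (28.5 to 34.7) and 89.9 CPM (86.0 to 94.0). Both neuron levels lie above the intermediate progenitor level and below the radial glia level, with intervals apart. Neurons held 64.3% of all Ptprz1 UMIs labelled E14, with 75.8% of all UMIs, so Ptprz1 RNA was not limited to progenitors.

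Il6st was at 6.88, 4.16 and 7.67 CPM in intermediate progenitors labelled E14, E16 and E18, below the radial glia in each library with intervals apart. Lifr was at 2.29, 5.91 and 5.91 CPM and was apart from the radial glia only in the library labelled E14. Of the 7 genes, 6 were higher in radial glia than in intermediate progenitors in all 3 libraries, all but Lifr. Fam107a and Itgb5 are counted there from a handful of UMIs. The count was 3 under the stricter cell filter and 3 with classes set by marker UMIs in place of clusters. Among the 5 at the minimum it was 4, where 44% of 9767 genes had that order. Tnc is 1 of the 4, passes the minimum only through radial glia labelled E14, and rests on 7 against 0 UMIs labelled E16, with overlapping intervals. Hopx, Ptprz1 and Il6st were higher with intervals apart in all 3 libraries, where 18% of genes were. Within single libraries, 3, 2 and 2 of the 5 were at least 2-fold higher in radial glia labelled E14, E16 and E18, where 3.91%, 2.66% and 3% of genes were. Tnc is 1 of the 3 labelled E14, a call that the minimum fixed, since Tnc passes it only through those cells.

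The intermediate progenitors showed the order of the labels for Hopx again. It was 5.60 times lower labelled E16 than E14 and 2.50 times lower labelled E18 than E14. Ptprz1 was 1.40 and 1.79 times lower, with the library labelled E18 below that labelled E16. Of the 3 genes at the minimum there, Hopx, Ptprz1 and Il6st, only Hopx was at least 2-fold lower labelled E16 over E14, where 2.86% of 9455 genes were. It was also the only one labelled E18 over E14, where 0.412% were.

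Among other genes reported for human outer radial glia, 9 were looked up and 4 passed the minimum in radial glia. With label E16 over E14, 3 were lower and 1 higher, with a median of -0.13. Acsbg1, a fatty acyl-CoA synthetase, was at 15.3, 0.676 and 1.78 CPM labelled E14, E16 and E18. Gli3, a transcription factor of Hedgehog signalling, was at 22.5, 17.4 and 14.9 CPM. Hs6st1, a heparan sulfate sulfotransferase, was lowest labelled E14, at 14.9, 18.0 and 18.9 CPM, but with overlapping intervals. Stat3, the transducer of the LIF receptor, was level at 9.40, 9.33 and 9.41 CPM. Sdc3, a syndecan just under the minimum, was at 12.2, 1.75 and 0.973 CPM. Acsbg1 passes the minimum through the library labelled E14 alone, so it had to be highest there. Gli3 too was above its level labelled E18 with intervals apart in radial glia labelled E14. Tktl1 had 0 UMIs in radial glia of all 3 libraries.

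Genes reported for the ventricular radial glia of human cortex differed between labels as well. Of 5, 2 passed the minimum. Palld, an actin-binding protein, was at 87.1, 29.7 and 73.3 CPM, and Tagln2, another actin-associated protein, at 53.0, 9.58 and 40.1 CPM. Both were lowest labelled E16 and at least 2-fold lower there than labelled E14. The 8 general radial glia genes also had a median of -0.77 labelled E16 over E14, with 7 lower and 3 at least 2-fold lower. Slc1a3, the glial glutamate transporter, was at 338, 63.3 and 129.9 CPM, and Fabp7, the brain fatty acid-binding protein, at 2252, 523 and 681 CPM. Vim, the filament gene vimentin, was at 4700, 2177 and 2937 CPM and Hes5 at 163, 84.7 and 119 CPM. Nes and Hes1 were highest labelled E18, at 320.2, 236 and 369 CPM and 112, 112 and 143 CPM. Labelled E18 over E14, 6 of the 8 were lower and 2 higher. Higher levels labelled E14 were thus found for some, not all, of the general radial glia genes.

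Of the LIF receptor pathway, the ligands were scarce in radial glia of every library. Of 7 ligands 2 passed the minimum. Cntf was at 4.19, 6.90 and 7.18 CPM and Ctf1 at 9.06, 5.10 and 5.51 CPM in radial glia labelled E14, E16 and E18. Lif itself had 2, 3 and 1 UMIs. Of the other receptor chains, Cntfr, which joins Lifr and Il6st for ciliary neurotrophic factor, was at 57.4, 60.4 and 80.3 CPM. Il11ra1 was at 29.5, 7.83 and 13.5 CPM, and Il6r and Osmr had 0 UMIs. Among transducers and targets, Jak1 was at 38.9, 25.2 and 32.2 CPM and Jak2 at 8.89, 4.54 and 5.84 CPM. Socs3, a feedback target of STAT3, was at 5.20, 8.99 and 5.60 CPM. None of these 3 genes differed 2-fold between labels E16 and E14. Gfap, an astrocyte filament gene and STAT3 target below the minimum, had 36, 4 and 21 UMIs.

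The partners of Ptprz1 in the matrix moved in both directions. Ptn, a secreted Ptprz1 ligand, was at 2227, 992 and 1435 CPM in radial glia labelled E14, E16 and E18. Bcan, a brain proteoglycan, was at 96.1, 1.04 and 22.5 CPM, and Ncan, its relative, at 21.6, 5.69 and 11.9 CPM. Vcan, the proteoglycan versican, ran in the opposite order at 7.38, 39.4 and 25.5 CPM. Of 6 genes at the minimum, 3 were lower and 3 higher labelled E16 over E14. Among integrins, Itgb1 was at 145, 64.7 and 84.3 CPM and Itgav at 21.1, 12.5 and 14.9 CPM. Itgb8 was at 22.0, 14.1 and 18.3 CPM, and Itga6, a laminin receptor chain, was highest labelled E16 at 4.53, 19.3 and 11.3 CPM. Bcan thus showed the same order as Tnc, and Vcan and Itga6 the reverse of it.

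**Figure D2:**
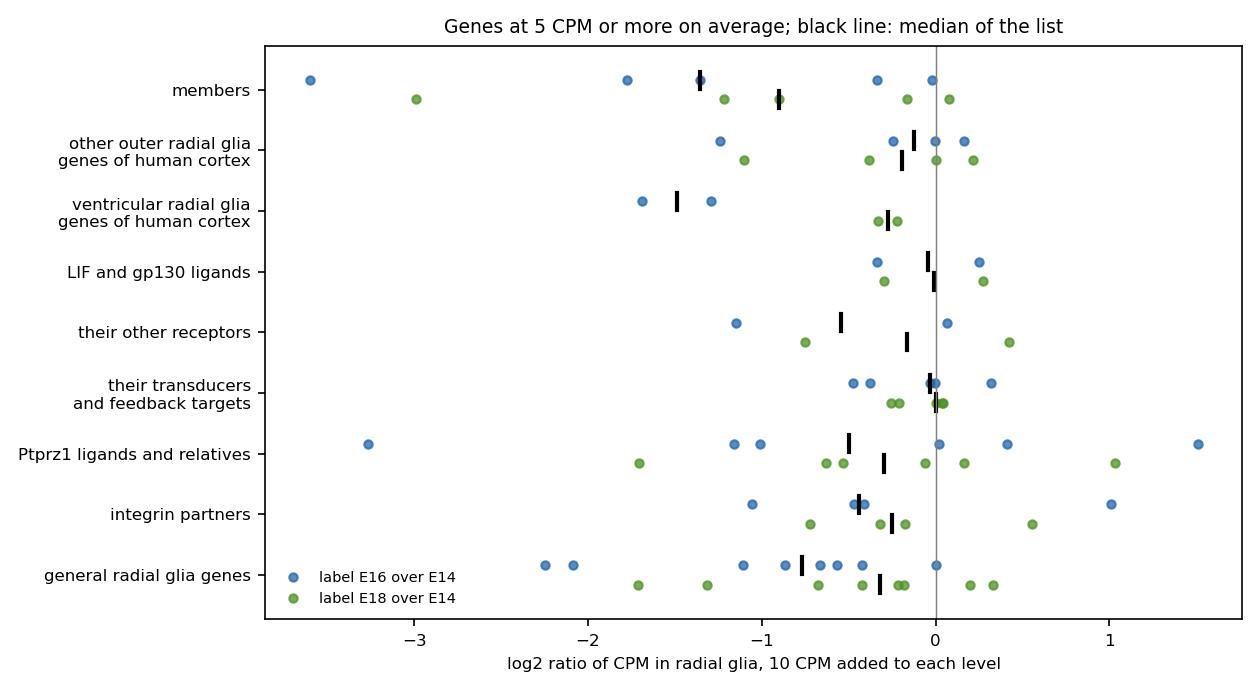
Log2 ratio of CPM in radial glia (horizontal axis, 10 CPM added to each level) for genes with at least 5 CPM on average, in the 7 outer radial glia genes (first row, "members") and in the lists of related genes; blue points give label E16 over E14, green points E18 over E14, and black lines the median of each list. The widest ratio of the first row is Tnc at -3.60, and the median of the general radial glia genes is -0.77 for label E16 over E14.

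Detection per cell was read in Sox2-positive cells, Sox2 being a transcription factor of neural stem cells. There were 1003, 3702 and 2831 such cells labelled E14, E16 and E18. Each was thinned to 4000 UMIs, which left out 35, 84 and 51 shallower cells. The share with Hopx was 44.7% (41.6 to 47.9) for the label E14, 26.5% (25.0 to 27.9) for E16 and 41.2% (39.4 to 43.0) for E18. Tnc was detected in 12.3% (10.3 to 14.5), 0.111% (0.0302 to 0.283) and 1.40% (0.999 to 1.91). Ptprz1 was detected in 45.5%, 38.5% and 34.9%. The other 4 were rare at this depth. Il6st was found in 5.58%, 4.70% and 5.47%, Lifr in 1.76%, 2.79% and 2.12%, Itgb5 in 0.620%, 0.138% and 0.288%, and Fam107a in 0.103%, 0.111% and 0.108%. Without thinning, Hopx was found in 61.1%, 52.3% and 64.1% and Tnc in 24.0%, 0.351% and 3.60%.

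Free RNA can put a UMI of these genes into cells that do not make them. In the 124 erythroid cells labelled E16, thinned to the same depth from a median of 32391 UMIs, Hopx was found in 1.61% (0.196 to 5.70) and the other 6 genes in 0 cells, which allows a share of up to 2.42%. In neurons, Hopx was found in 2.92% labelled E14 and 3.78% labelled E18, at median depths of 11054 and 8963 UMIs, and Tnc in 0.523% and 0 of 2115 cells. The shares of Hopx in Sox2-positive cells lie well above these. Ptprz1 was found in 33.7% of neurons labelled E14 and 19.1% of those labelled E18, so neurons, which hold its RNA, give no background for it, and the erythroid cells are the comparison. Tnc labelled E18 lies above the 0.142% that its neurons allow. Il6st was found in 2.77% and 3.55% of neurons and Lifr in 1.51% and 1.47%. The shares of Fam107a and Itgb5 and of Tnc labelled E16 are not clearly above what these cells allow and are not read as expression. The Lifr shares are too low to be set apart from these cells at this depth. In sums of all UMIs, erythroid cells labelled E16 had 0 Lifr UMIs (which allows up to 0.733 CPM), below the 5.83 CPM of radial glia. The erythroid cells were deeper, with a median of 32391 UMIs against 14718 in radial glia labelled E16. They may therefore understate the share of free RNA in other cells.

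In the radial glia alone, Hopx was found in 76.1% (71.4 to 80.3) of cells labelled E14, 31.8% (29.8 to 33.8) labelled E16 and 55.9% (53.5 to 58.2) labelled E18. Tnc was found in 29.3% (24.7 to 34.1), 0.0948% and 1.36% (0.861 to 2.03). Ptprz1 was found in 79.3%, 43.4% and 48.6%. Counts of 2 or more Hopx UMIs occurred in 44.7% of radial glia labelled E14, 9.86% labelled E16 and 24.6% labelled E18, with maxima of 8, 7 and 9 UMIs. For Tnc labelled E14 that share was 9.04%, with a maximum of 6 UMIs. Hopx was thus spread over most radial glia labelled E14 and Tnc was found in fewer of them.

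Cells that held several of the 7 genes were most common in the library labelled E14. At least 3 of the 7 were found in 99 of 968 Sox2-positive cells labelled E14, or 10.2% (8.39 to 12.3). They were found in 24 of 3618 labelled E16, or 0.663% (0.425 to 0.985), and in 51 of 2780 labelled E18, or 1.83% (1.37 to 2.41). The difference between labels E14 and E16 was 9.56 percentage points (7.70 to 11.7). It was 2.89 points with cells thinned to 2000 UMIs and 18.6 with 8000, so its size depends on depth. No cell held more than 4 of the 7, and 11, 0 and 3 cells held 4. The mean number was 1.11, 0.728 and 0.855. In radial glia alone the share with at least 3 was 25.5% (21.2 to 30.3), 0.758% (0.434 to 1.23) and 2.59% (1.89 to 3.47). Without thinning the Sox2-positive shares were 27.4%, 11.0% and 14.7%.

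**Figure D3:**
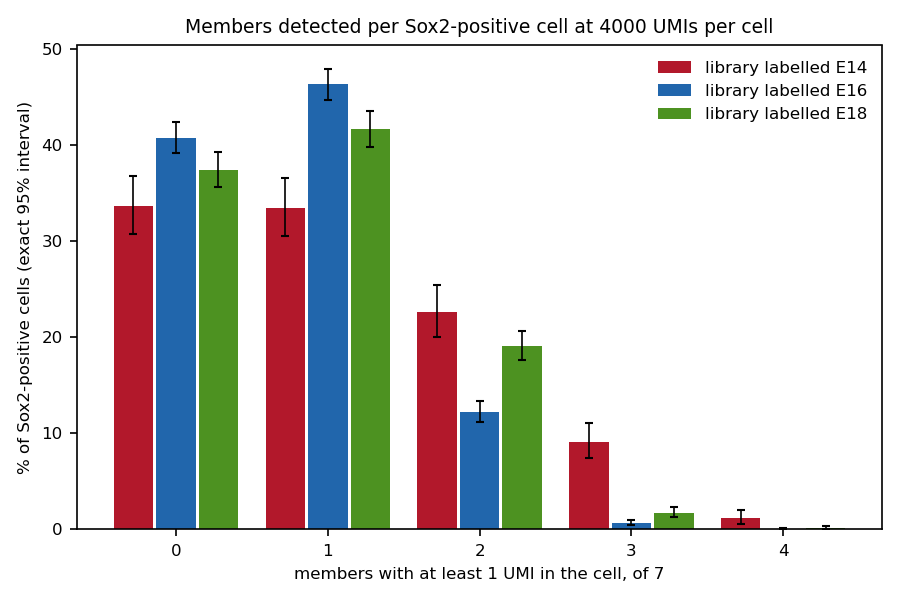
Share of Sox2-positive cells (vertical axis, percent, whiskers exact 95% intervals) by how many of the 7 genes had at least 1 UMI in the cell at 4000 UMIs per cell (horizontal axis), coloured by library label. At 3 genes the bars are 9.09% labelled E14, 0.663% labelled E16 and 1.73% labelled E18, and no cell passes 4.

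Tnc was found with Hopx and with Ptprz1 more often than without them in cells labelled E14. Hopx was found in 91 of 119 Sox2-positive cells with a Tnc UMI, or 76.5% (67.8 to 83.8), and in 342 of 849 without one, or 40.3% (37.0 to 43.7). Ptprz1 was found in 83.2% (75.2 to 89.4) and 40.2% (36.8 to 43.6). The difference for Hopx was 36.2 points (26.9 to 44.2). Inside the radial glia it was small. Hopx was found in 79.1% (70.3 to 86.3) of 110 radial glia with Tnc and 74.8% (69.1 to 79.9) of 266 without, and Ptprz1 in 87.3% (79.6 to 92.9) and 75.9% (70.3 to 80.9), with overlapping intervals. Limited to Sox2-positive cells of radial glia clusters, the Hopx difference was 4.0 points (-6.16 to 13.1). The wide difference over all Sox2-positive cells was thus not seen within the class.

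Genes outside the set also differed between cells with and without Tnc labelled E14. Eomes was found in 14.3% (8.55 to 21.9) of Sox2-positive cells with Tnc and 53.0% (49.6 to 56.4) of those without. Slc1a3 was found in 69.7% (60.7 to 77.8) and 22.6% (19.8 to 25.6), and Hes5, a Notch target of radial glia, in 42.0% (33.0 to 51.4) and 13.0% (10.8 to 15.4). Top2a, a gene of dividing cells, was found in 42.9% (33.8 to 52.3) and 26.6% (23.7 to 29.7).

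Each pair of the 7 genes was counted once, in alphabetical order and with at least 20 cells holding the first gene. By this count 10 pairs could be read in Sox2-positive cells labelled E14 and 12 in each of the others. The second gene was found more often beside the first in 8, 5 and 8 of them, and with intervals apart in 3, 0 and 1. In radial glia alone it was so in 7, 3 and 6, and with intervals apart in 0, 0 and 0. It was found less often with intervals apart in 0, 2 and 0 pairs, in either group of cells. No share over other gene pairs stands beside these counts, so they are not read as a trait of the 7 genes. Hopx and Ptprz1 went apart in radial glia labelled E16, where Ptprz1 was found in 37.2% (33.5 to 40.9) of cells with Hopx and 46.3% (43.7 to 48.9) of those without. Lifr was likewise found there in 0.896% (0.329 to 1.94) of cells with Hopx and 3.06% (2.23 to 4.08) of those without. Over all Sox2-positive cells labelled E18, Ptprz1 was found more often with Hopx, in 40.3% (37.4 to 43.2) against 31.1% (28.9 to 33.4). In radial glia labelled E18 the shares were 45.9% (42.7 to 49.1) and 51.9% (48.3 to 55.6), with overlapping intervals. In radial glia labelled E14 they were 78.0% (72.7 to 82.6) and 83.3% (74.0 to 90.4). No ordered pair was found together more often with intervals apart inside the radial glia of any library.

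**Figure D4:**
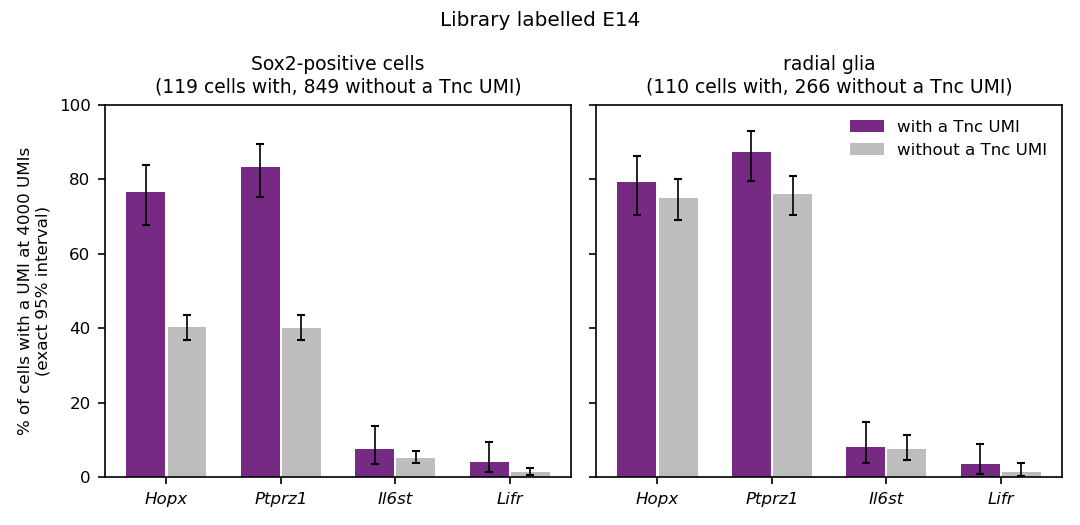
Share of cells of the library labelled E14 (vertical axis, percent at 4000 UMIs per cell, whiskers exact 95% intervals) in which Hopx, Ptprz1, Il6st and Lifr were found, for cells with (purple) and without (grey) a Tnc UMI. Among Sox2-positive cells the Hopx bars are 76.5% and 40.3%, and among radial glia 79.1% and 74.8%.

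Sox2-positive cells with Eomes held these genes too. At 4000 UMIs, Hopx was found in 42.3% of Sox2-positive cells with Eomes labelled E14 and 47.5% of those without. The shares were 22.6% and 27.3% labelled E16 and 30.9% and 48.9% labelled E18. Tnc labelled E14 was found in 5.17% (3.44 to 7.44) with Eomes and 20.6% (17.0 to 24.7) without. Ptprz1 was found in 33.3% and 59.6% labelled E14, 26.6% and 41.0% labelled E16 and 19.9% and 46.2% labelled E18. Hopx was therefore less separated by Eomes than Tnc and Ptprz1 in the library labelled E14, which was not tested as a difference.

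Radial glia with many mitotic UMIs held more Hopx or Ptprz1 than those with few in some libraries. None of these genes was lower in them with intervals apart. Radial glia with at most 1 and with at least 5 UMIs of 10 mitotic genes were set apart, at 4000 UMIs per cell. These are ranges of a count and not cell types, and 53, 316 and 249 cells labelled E14, E16 and E18 lay between them. Hopx was at 412 CPM (383 to 444) in the 145 cells with few mitotic UMIs labelled E14 and 481 CPM (457 to 505) in the 178 with many. Labelled E16, Hopx was at 103 CPM (86.8 to 121) and 128 CPM (124 to 132), again with intervals apart. Labelled E18 it was at 248 CPM (236 to 261) and 234 CPM (226 to 242), with overlapping intervals. Tnc labelled E14 was at 117 CPM (101 to 134) and 106 CPM (95.3 to 118), and labelled E18 at 6.26 and 5.57 CPM, with overlapping intervals. Ptprz1 was higher in the cells with many mitotic UMIs only labelled E18, at 145 CPM (136 to 154) and 207 CPM (200.2 to 215).

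The Tnc of the library labelled E18 lay in few cells. Wnt8b is a WNT ligand made at the medial edge of the cortex next to the hippocampal primordium. It is among the leading genes of an unnamed cluster of 831 cells labelled E16 and 36 labelled E18. The cells were split by Wnt8b UMIs after the clusters had been seen. Of 1759 radial glia labelled E18, 87, or 4.95%, held a Wnt8b UMI, and they held 92 of the 138 Tnc UMIs, or 66.7%. Tnc was at 51.1 CPM (41.2 to 62.7) in them and at 2.01 CPM (1.47 to 2.68) in the other 1672, which is 25.4 times lower. The cells with Wnt8b were deeper, with medians of 16062 and 12472 UMIs. At 4000 UMIs per cell Tnc was found in 12 of 85, or 14.1% (7.51 to 23.4), and in 11 of 1612, or 0.682% (0.341 to 1.22). Without the Wnt8b cells, the radial glia labelled E14 had 56.3 times the Tnc level of those labelled E18.

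Hopx, Ptprz1, Lifr and Il6st did not share this pattern, and Fam107a did, from few UMIs. In the same cells labelled E18, Hopx was lower with Wnt8b, at 157 CPM (139 to 177) against 242 CPM (236 to 249). Ptprz1 was at 197 CPM (177 to 219) and 185 CPM (179.8 to 191), and Lifr and Il6st overlapped as well. Fam107a had 8 of its 10 UMIs in the 87 cells, at 4.44 CPM (1.92 to 8.76) against 0.0875 CPM (0.0106 to 0.316). Itgb5 had 1 of its 8 UMIs there. Over all Sox2-positive cells labelled E18, Itgb5 was at 5.15 CPM (3.05 to 8.14) with Wnt8b and 1.12 CPM (0.80 to 1.54) with none of the patterning genes, and 17 of the 18 UMIs with Wnt8b lay in choroid plexus cells. In the library labelled E16, where 289 radial glia held Wnt8b and 1896 did not, Tnc was at 0.327 and 0.170 CPM, from 2 and 5 UMIs. Hopx was at 157 CPM (147 to 167) with Wnt8b there and 117 CPM (113 to 121) without, the reverse of the library labelled E18. Only 1 radial glial cell labelled E14 held Wnt8b, so the Tnc of that library lay in cells without it.

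In the library labelled E18, 2 unnamed clusters held Tnc, and both have genes of cortical patterning among their leading genes. The first is led by Ung, Wnt8b and replication genes such as Cdc6, Mcm2 and Mcm3. It held 46 Tnc UMIs in 36 cells, or 61.8 CPM (45.2 to 82.4). The cluster led by Fgf17 and Fgf8, growth factors of the rostral patterning centre, held 40 UMIs in 38 cells, or 71.0 CPM (50.7 to 96.6). With 1.15% and 0.868% of all UMIs they made up 19.4% and 16.9% of the Tnc UMIs, and the radial glia 58.2%. In the library labelled E16 the Fgf17 cluster had 5 Tnc UMIs in 321 cells, at 1.36 CPM. Over all Sox2-positive cells labelled E18, Tnc was at 39.2 CPM (32.9 to 46.3) with Wnt8b, 43.5 CPM (28.9 to 62.8) with Fgf17 or Fgf8 and 1.76 CPM (1.35 to 2.26) with none of these. The cells with none labelled E14 stood at 54.0 CPM (50.1 to 58.1).

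**Figure D5:**
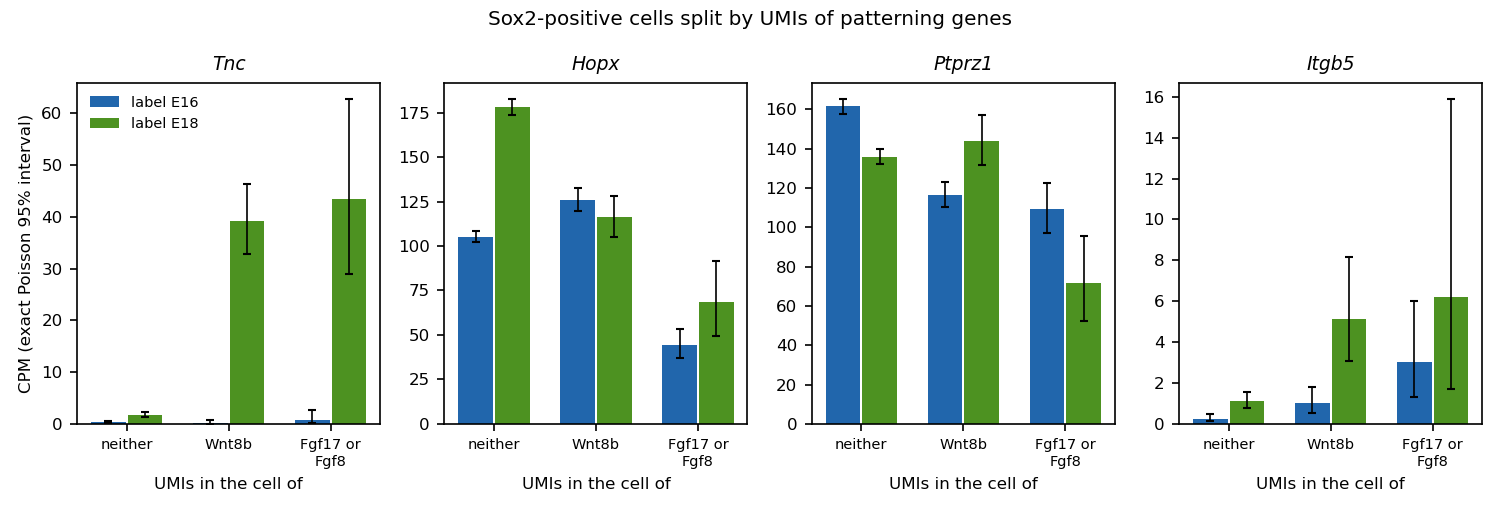
Tnc, Hopx, Ptprz1 and Itgb5 in Sox2-positive cells (vertical axis, CPM with exact Poisson 95% intervals, a separate scale in each panel) of the libraries labelled E16 and E18, split by UMIs of Wnt8b, of Fgf17 or Fgf8, or of neither. Tnc labelled E18 is at 39.2 and 43.5 CPM in the first 2 groups and 1.76 CPM in the last, while Hopx labelled E18 is highest in the last, at 178 CPM.

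RNA of the genes was also found outside the cortical lineage. Ptprz1 labelled E16 was at 67.4 CPM (58.2 to 77.6) in choroid plexus, against 2.44 CPM in erythroid cells. In meningeal cells labelled E16 it was at 52.7 CPM (42.1 to 65.2), from 85 UMIs in 12 of 120 cells. In the library labelled E16, meningeal cells held 67 of 81 Tnc UMIs, at 41.5 CPM (32.2 to 52.8), in 17 of the 120 cells. Hopx was at 152 CPM (110.2 to 204) in microglia labelled E18, from 44 UMIs that all lay in 4 of the 13 cells. It was at 62.9 CPM (49.9 to 78.1) in Cajal-Retzius cells, the first-born neurons of the cortical surface, labelled E16. Lifr was at 78.1 CPM (65.1 to 93.0) in meningeal cells labelled E16 and at 87.8 CPM (63.0 to 119) in the 7 endothelial cells labelled E14, which held 17.6% of its UMIs with 0.884% of all UMIs. Il6st was at 95.5 CPM (81.0 to 112) in meningeal cells labelled E16. For both receptor chains these levels lie several times above those of radial glia, with intervals apart.

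Itgb5 reached its highest levels in microglia. Microglia held 51.3%, 23.9% and 46.7% of its UMIs labelled E14, E16 and E18, at 93.3, 118 and 221 CPM, from 8 to 13 cells each. Meningeal cells held 52.1% labelled E16, at 37.8 CPM (28.9 to 48.6). Labelled E18, choroid plexus cells held 25.5%, at 21.4 CPM (14.9 to 29.7), and meningeal cells 15.3%. Labelled E14, meningeal cells held 0 of the 39 UMIs. Radial glia held 30.8%, 3.42% and 5.84% of Itgb5 UMIs labelled E14, E16 and E18. Fam107a had 5 of its 8 UMIs labelled E14 in endothelial cells and 10 of 34 labelled E18 in choroid plexus, as many as in radial glia of that label. Radial glia held 8 of its 22 UMIs labelled E16. Over the 20 class and library sums with at least 50 cells, Itgb5 was most like Tpm2 (Pearson r = 0.98), Crip1 (0.95) and Ahnak (0.95), in log2(CPM + 10). These sums share libraries and differ in depth, so the correlations are descriptions.

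By the same measure, over 6145 genes, Hopx was most like Fgfr3 (0.87), Tfap2c (0.86) and Ltbp4 (0.84), and Ptprz1 most like Pea15 (0.87), its ligand gene Ptn (0.87) and Sav1 (0.87). Tnc was most like Lima1 (0.72), Purb (0.67) and Oat (0.67). Lifr was most like Col5a2 (0.96), Col1a2 (0.91) and Lgals1 (0.91). Il6st was most like Tpm1 (0.92), Nenf (0.91) and Rrbp1 (0.90), while Fam107a, at a mean of 0.536 CPM over these sums, is too low to be given a likeness. Among the 7 genes themselves the values were highest between Lifr and Il6st (0.83), Il6st and Itgb5 (0.80) and Lifr and Itgb5 (0.78), with Hopx and Ptprz1 at 0.58 and Hopx and Tnc at 0.43. With Hopx, Lifr had -0.02, Itgb5 -0.08 and Il6st 0.15. Microglia and endothelial cells, where Itgb5 and Lifr were highest, are too few to enter these sums.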

How the data were processed

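Single-cell RNA was measured in 3 libraries of rat embryonic cortex, 1 per label, made with the 10x Genomics 3′ kit version 3.1 and read on a NovaSeq 6000 per the labels' protocols. That text also describes steps for cultured and sorted human cells, and which of them apply is not known. The deposited values are raw UMI counts per gene and barcode, not normalized, and Cell Ranger 6.0.1 with genome build mRatBN7.2 is named in the submitters' processing notes. The files held 62740631, 80974234 and 73727823 UMIs in 7100, 6707 and 6937 barcodes labelled E14, E16 and E18.

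Of these, 4444, 5193 and 5690 barcodes passed the filters given in the report. Scrublet scores (Scanpy 1.11.5) were used to remove 158, 216 and 259 cells as doublets, the highest scores at 0.8% per 1000 cells. For clustering, each cell's counts were divided by their total, multiplied by 10000 and put on a log scale, and the 2000 most variable genes, without the 7 genes and the gene lists, gave 30 principal components and 15 neighbours for Leiden clustering (leidenalg 0.10.2, resolution 1). Of 26 clusters, 23 were named from 107 marker symbols of 15 classes, with at least 3 markers raised 1.2-fold and detected in 20% of cells. Newborn and maturing neurons were merged after the clusters had been seen. Class names rest on these rebuilt clusters.

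CPM come from the summed UMIs of each class in each library, with exact Poisson intervals (scipy 1.17.1). Shares carry exact Clopper-Pearson intervals, and a count of 0 is given a limit of 3 counts. UMIs without a replicate library give counting error only. Log2 ratios add 10 CPM and use genes of at least 5 CPM on average. The script for ratios and intervals was tested on simulated data. The genes and lists were chosen with earlier results of these data known. All 7 genes are named, and up to 4 genes of each list by the largest ratio of label E16 over E14. One of the genes so chosen is not reported here. List genes named beside these (Lif, Il6r, Osmr, Gfap, Tktl1, Sdc3, Nes, Hes1), the genes given beside Tnc-positive cells and the Wnt8b and Fgf17 splits were chosen after their values were seen. Promoters come from the RefSeq table of GRCr8, used for sequence and not for these counts. Alternatives covered cell filters, doublet removal, clustering, marker gates, thinning depth and the added CPM.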

Additional observations from a re-analysis of the deposited data

Results flagged for a closer look

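The difference in Hopx between cells with and without Wnt8b went in opposite directions in 2 libraries. In Sox2-positive cells, the log2 ratio of Hopx with over without Wnt8b UMIs was 0.24 labelled E16 (126 against 105 CPM in cells with none of the patterning genes) and -0.58 labelled E18 (116 against 178 CPM). Tnc in Sox2-positive cells with over without UMIs of Olig1, Olig2, Pdgfra or Sox10, genes of the oligodendrocyte lineage, was -0.90 labelled E14 (25.1 against 55.6 CPM), 0.41 labelled E16 (3.59 against 0.24 CPM, from 8 and 13 UMIs) and 1.13 labelled E18 (22.6 against 4.89 CPM). The cells with such UMIs numbered 35, 126 and 81. With 1 library per label, neither difference between libraries was tested.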

How the results depend on the processing

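No summary result reversed direction. Among single genes, Ptprz1 labelled E18 over E16 turned to -0.46 with the stricter filter, Lifr labelled E16 over E14 kept its sign in 7 of 12 alternatives, labelled E18 over E14 in 11 and labelled E18 over E16 in 10, and Fam107a and Itgb5 changed sign in some. The median of the genes in radial glia labelled E16 over E14, -1.35 as reported, was -0.89 with the stricter cell filter and -1.52 with the looser one. It was -1.48 with marker gates, -1.46 with the 7 genes and lists among the variable genes and -0.33 with all 7 genes, the last chosen after seeing the data. Labelled E18 over E14, -0.90 as reported, it was -0.80 without doublet removal, -1.09 with marker gates and -0.22 with all 7 genes. Labelled E18 over E16, 0.17 as reported, it was 0.34 with cells thinned to 4000 UMIs. The count of genes higher in radial glia than in intermediate progenitors, 6, was 3 with the stricter filter and 3 with marker gates. The share with at least 3 genes, E14 minus E16, 9.56 points, was 2.89 at 2000 UMIs, 18.6 at 8000, 13.4 with at least 2 Sox2 UMIs, 16.5 without cells holding UMIs of other lineages and 24.8 in radial glia clusters. The Hopx difference beside Tnc, 36.2 points, was 22.8 with the stricter filter, 25.5 with at least 2 Sox2 UMIs and 4.0 in radial glia clusters. Apart from what the settings themselves change, the cause was not tested. The other 48 of 67 alternative values stayed within the counting interval, or within 1.5 times for the count. Hopx, Tnc and Il6st kept their direction in all 12 alternatives run per gene for each pair of labels. Counting the Ung and Wnt8b cluster as radial glia, or leaving out radial glia with Wnt8b, also chosen after seeing the data, changed no median beyond its interval. No paired analysis was possible because each label has 1 library. The ratios of Fam107a and Itgb5 in radial glia rest on 1 to 12 UMIs per library.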

Other observations

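The order of the labels for Hopx over whole libraries differed from that in radial glia. Over all kept cells, Hopx was at 70.3, 92.0 and 110.0 CPM labelled E14, E16 and E18, lowest where radial glia made up 9.54% of cells and not where its level per radial glial UMI was lowest. Tnc was at 14.2, 1.14 and 3.65 CPM and Ptprz1 at 160, 123 and 111 CPM over the same cells, highest labelled E14 as in radial glia, and Tnc kept the order of all 3 labels.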
